A study of Mus musculus with 6 samples.

Results

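The 39 protein-coding genes of the HoxA, HoxB, HoxC and HoxD clusters were followed in ChIP-seq lists of H3K27Ac and Maf from adult mouse hindlimb muscle. The members were all genes of the GENCODE annotation of GRCm38 named Hoxa, Hoxb, Hoxc or Hoxd with a number. They were 11 HoxA, 10 HoxB, 9 HoxC and 9 HoxD genes, out of 21827 protein-coding genes with a transcript start. H3K27Ac is an acetylation of lysine 27 of histone H3 that is found at active promoters and enhancers, and Maf is a bZIP transcription factor. Nuclei came from the gastrocnemius and quadriceps muscles of wild-type mice aged 2 months, with no treatment given. The series held 6 samples, which were 2 of H3K27Ac, 2 of Maf and 2 inputs without antibody, and the inputs were not used here. Samples of the same target are labelled as biological replicates, but whether each came from a separate animal is not given.

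Hox genes encode homeodomain transcription factors that give body segments their identity along the axis from head to tail. Each cluster holds its genes in one order, with low paralogue numbers used early and toward the head and high numbers used late and toward the tail and the tips of the limbs. Genes with the same number in different clusters are paralogues, and every cluster lacks some numbers. In the embryo, Polycomb proteins methylate lysine 27 over silent parts of a cluster, and acetylation of the same residue marks the parts in use. Adult fibroblasts and muscle cells are known to keep much of the Hox state of the body region from which they came.

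Each list held called regions without read counts, so the depth is unknown and the values below are lengths, distances and counts of genes. The H3K27Ac lists held 44887 and 44987 regions, which covered 3.37% and 3.46% of the genome. The Maf list of replicate 1 stood apart, with 74 peaks against 5467 in replicate 2. It held no peak on chromosome 6, where HoxA lies, so the Maf results below rest on replicate 2. The muscle origin was checked by marker genes with H3K27Ac within 1 kb of a transcript start in both replicates. Of 18 myofiber markers, 18 carried it, among them Acta1, Actn3, Atp2a1 and Casq1, and 2001 of the 2001 bases around the start were covered for the median marker in both replicates. Of 10 liver markers 0 carried it, and of 10 neuron markers 1 did, Dlg4. Markers of other cells of muscle were also covered, which were 11 of 11 for fibro-adipogenic cells (Col1a1, Col1a2, Col3a1 and Dcn among them), 9 of 9 for endothelium (Cdh5, Cldn5, Flt1, Pecam1), 8 of 8 for smooth muscle and pericytes (Cspg4, Des, Kcnj8, Myh11, of which Des is also on the myofiber list) and 7 of 7 for macrophages (C1qa, C1qb, Csf1r, Mrc1). The count was 4 of 7 for satellite cells, 3 of 6 for tendon, 2 of 6 for Schwann cells and 2 of 5 for adipocytes. Over all protein-coding genes, 55.2% were marked in both replicates. The satellite cell and tendon counts lay near that share, and those of Schwann cells and adipocytes lay below it. In such bulk nuclei, a mark in few nuclei and a weaker mark in many cannot be told apart, and the part of each cell type in the Hox regions was not tested.

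Most Hox genes carried H3K27Ac at their starts in hindlimb muscle, and the unmarked ones belonged to HoxB, HoxC and HoxD. A region lay within 1 kb of a start for 29 of 39 genes in replicate 1 (74.4%) and for 28 in replicate 2 (71.8%). Over all protein-coding genes the shares were 56.6% and 56.9%. In both replicates 28 Hox genes were marked (71.8%), beside 55.2% of all genes, and in either replicate 29 were (74.4%), beside 58.3%. The only member that differed between the replicates was Hoxb9. Neighbouring Hox genes can share a region, so they are not independent of each other, and no test over genes was made. The median Hox gene had 1333 bases covered of the 2001 bases around its start in replicate 1 and 1440 in replicate 2, beside 1036 and 1071 for all genes. The whole window was covered at 13 Hox starts in replicate 1 (33.3%) and at 12 in replicate 2 (30.8%), beside 16.9% and 18.3% of all genes. For the 28 genes marked in both replicates, the median difference in covered bases was 56.0, and the largest was 614 at Hoxc5.

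The clusters differed in how many members were marked in both replicates, with 11 of 11 in HoxA, 6 of 10 in HoxB, 7 of 9 in HoxC and 4 of 9 in HoxD. They differed more in the share of their bases under H3K27Ac. HoxC lies at chr15:102921103-103036852 on the plus strand and was covered over 58.6% of its 116 kb in replicate 1 and 58.0% in replicate 2. HoxA lies at chr6:52155590-52260880 on the minus strand and was covered over 48.3% and 52.0% of its 105 kb. Both stood well above HoxB, at chr11:96194316-96368256 on the plus strand, with 14.2% and 18.6% of 174 kb. HoxD, at chr2:74668310-74765142 on the plus strand, had 12.6% and 14.7% of 96.8 kb. The replicates of HoxB and HoxD overlap in these values, so no order is given for them over the full spans, whereas HoxA and HoxC each lay above them in both replicates. The HoxB value depends on the long bare stretch beside Hoxb13. Counted from Hoxb9 to Hoxb1, an alternative chosen after seeing the data, 34.9% of HoxB was covered in either replicate in place of 19.4%, beside 14.9% of HoxD, 53.9% of HoxA and 59.9% of HoxC. Over the 4 clusters together, 31.6% and 34.2% of the bases were covered, in 38 regions per replicate.

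**Figure D1:**
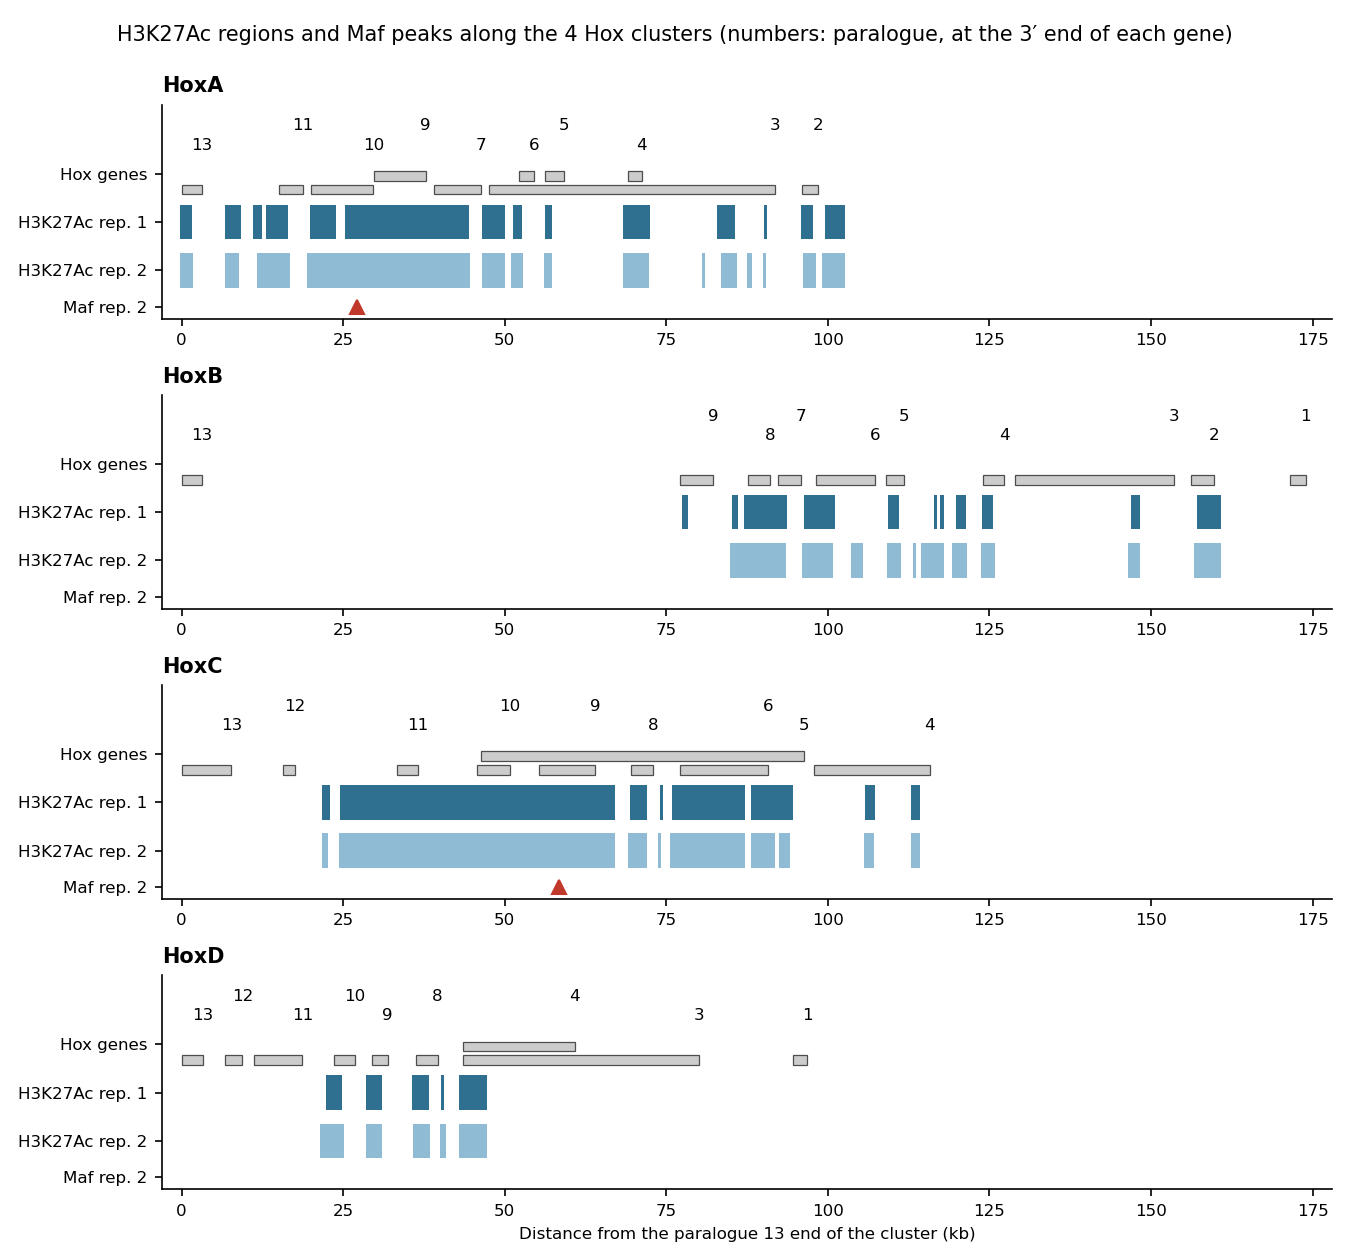
Map of the 4 Hox clusters, with the distance in kb from the end that holds paralogue 13. Grey boxes are the annotated genes that are shown, with their paralogue numbers, bars are the H3K27Ac regions of each replicate and triangles are Maf peaks of replicate 2. HoxC holds 1 region of 42.6 kb in replicate 1, HoxA has regions from end to end, and the regions of HoxD lie between 22.4 and 47.2 kb in replicate 1.

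Over the 4 clusters as a whole, the replicates shared more of their covered bases than over the genome, but HoxB did not. Of the bases covered in either replicate, 85.7% were covered in both over the 4 clusters, beside 72.1% over the genome. This share was 94.5% in HoxC, 85.9% in HoxA, 82.8% in HoxD and 68.7% in HoxB. Of the 38 regions of replicate 1, 37 overlapped one of replicate 2, and 34 of the 38 regions of replicate 2 overlapped one of replicate 1. These shares were 97.4% and 89.5%, beside 81.3% and 80.2% over the whole lists. HoxB in replicate 2, with 8 of 10 regions (80.0%), was at the share of the list. The longest region without a partner was 1814 bp, in replicate 2 near a start of Hoxb6. Of the 38 regions, 24 lay within 1 kb of a Hox start in each replicate and 4 lay near several of them, so 14 regions per replicate lay away from all coding Hox starts.

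Among the genes with low numbers, HoxA stood alone with all of its members marked. Paralogues 1 to 3 were marked in 5 of 8 cases in each replicate, near the share of all protein-coding genes, 56.6% and 56.9%. Hoxa2, Hoxa3, Hoxb2 and Hoxd3 were among the marked ones. Hoxb1, which patterns the hindbrain, had 0 covered bases within 1 kb of its start in both, with the nearest region 10586 and 10546 bases away. Hoxd1 also had 0, and its nearest region was 47431 and 47420 bases away. Hoxa2, which gives the second pharyngeal arch its identity, had 1245 and 949 bases covered, and Hoxb2 had 1211 and 1599. Hoxb3 had 0 within 1 kb, with a region 1171 and 1110 bases from a start. For Hoxa3 and Hoxd3 the marked start was a distant upstream one. Hoxa3 was covered over all 2001 bases there in both replicates, but only over 0 and 754 bases around its first coding base. Hoxd3 had 1746 and 1690 bases at its upstream starts and 0 around the first coding base in both replicates. Hoxb6, of a higher number, had the same form, with 2001 bases at a start in both and 0 and 1607 around the first coding base.

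Genes with middle numbers were marked almost throughout. Of the 15 genes numbered 4 to 8, 14 were marked in each replicate, beside 56.6% and 56.9% of all protein-coding genes. Every gene numbered 5, 6, 7 or 8 was marked in both. The exception was Hoxd4, with 0 covered bases at the starts of its coding transcripts and the nearest region 6429 and 6418 bases away. The annotated Hoxd4 gene also includes a longer noncoding transcript that begins inside the region at the upstream Hoxd3 start, so 21.0% and 21.1% of the annotated gene were covered. Its paralogues had 1776 and 1849 covered bases at Hoxa4, 1124 and 1312 at Hoxb4, and 1408 and 1376 at Hoxc4. The Hoxc4 value was the same around its first coding base, and its outermost start lay in an uncovered stretch of 10.9 kb. Hoxb7 and Hoxb8, neighbours that serve the trunk and, for Hoxb8, blood progenitors, shared 1 region of 6791 bp in replicate 1 and 8635 bp in replicate 2 and were fully covered at a start. Hoxa5, known for its part in lung formation, had 1131 and 1188 bases, from regions of 1220 and 1258 bp, and Hoxb5 had 832 and 1095. Hoxc5 had 2001 and 1387, since 1 region of replicate 1 was called as 2 in replicate 2. Hoxa6 had 1470 and 1692 bases, and Hoxc6 had 1333 and 1440. Hoxa7 had 2001 in both. Hoxc8, which acts in motor neurons of the forelimb level, had 1092 and 1466 bases. Hoxd8 had 2001 and 1996 bases.

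The genes with high numbers, some of which pattern the limb, split sharply. Of the 16 genes numbered 9 to 13, 10 were marked in replicate 1 and 9 in replicate 2. As a group they were near the share of all protein-coding genes, 56.6% and 56.9%. Number 10 was marked in each of its 3 members, while number 12 was marked in 0 of 2 and number 13 in 1 of 4. Hoxc9, Hoxc10 and Hoxc11 were covered over all 2001 bases in both replicates, and so were Hoxa9, Hoxa11 and Hoxd10. Hoxa10 had 1627 and 2001 bases, and Hoxd9 had 1821 and 1953. Hoxb9 had 767 bases in replicate 1, from a region of 947 bp, and 0 in replicate 2, where the nearest region was 7700 bases away. Hoxa13, which shapes the hand and foot, was the marked member of number 13, with 1293 and 1365 bases. Hoxb13, Hoxc13 and Hoxd13 had 0 in both replicates, as did Hoxc12, Hoxd12 and Hoxd11. The nearest region was 77441 and 84907 bases from Hoxb13, 21694 and 21779 from Hoxc13, and 22400 and 21467 from Hoxd13. It was nearer to Hoxc12, at 6040 and 6125 bases, and to Hoxd11, at 8387 and 7454, and lay 15697 and 14764 bases from Hoxd12. Hoxa13 and Hoxd13 act together in the embryonic foot, and in this adult tissue the first had a region over its start in both replicates and the second did not.

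**Figure D2:**
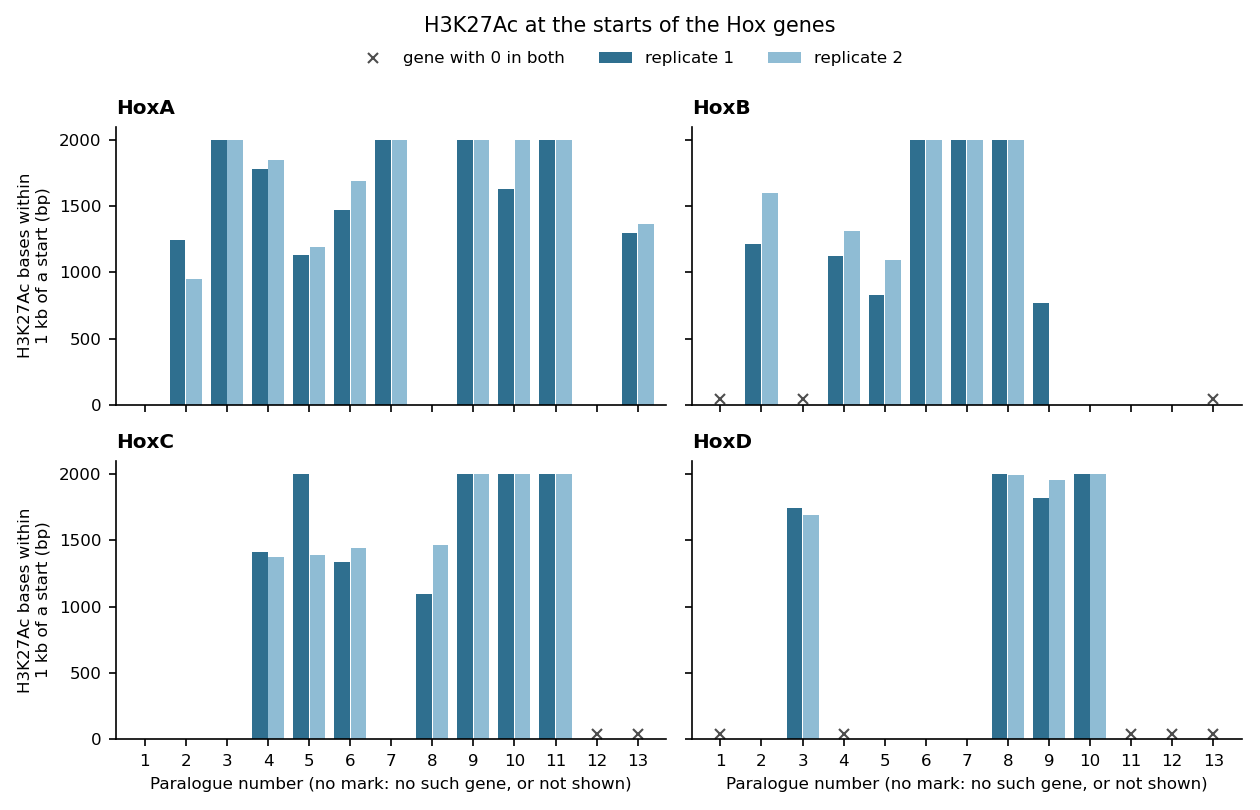
Bases covered by H3K27Ac within 1 kb of a coding transcript start of each Hox gene shown (the start with the most), by cluster and paralogue number, in replicate 1 (dark) and replicate 2 (light). Crosses are genes with 0 in both replicates. No HoxA gene shown is at 0, HoxC has 0 at 12 and 13, HoxD at 1, 4 and 11 to 13, and HoxB at 1, 3 and 13.

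The unmarked genes lay in long stretches without any region in either replicate. The longest ran over 77.4 kb, from Hoxb13 to a start of Hoxb9, with no other Hox gene in it. Shorter ones of HoxB held Hoxb3 starts, over 20.5 kb, and Hoxb1, over 13.1 kb. HoxC was bare over 21.7 kb at its high end, which included Hoxc13 and Hoxc12. In HoxD, all regions lay between 22.4 and 47.2 kb from the Hoxd13 end in replicate 1 and between 21.5 and 47.2 kb in replicate 2, a span that holds the starts of Hoxd10, Hoxd9, Hoxd8 and the upstream starts of Hoxd3. The rest of HoxD was uncovered, over 21467 bases at the Hoxd13 end and 49582 bases at the Hoxd1 end, which includes Hoxd4. In HoxA, the longest bare stretch was 10.9 kb, between Hoxa5 and Hoxa4, and it held no Hox start of a coding transcript.

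Very long regions lay inside HoxC, over the genes numbered 9 to 11, and inside HoxA, over starts of the genes numbered 7 to 10. A region of 42587 bp in replicate 1 (chr15:102945640-102988226) and 42660 bp in replicate 2 (chr15:102945455-102988114) held the whole of Hoxc11, Hoxc10 and Hoxc9, of which Hoxc10 and Hoxc11 are known from the lumbar and hindlimb level. Among all H3K27Ac regions of the genome it ranked at 6 and 7 by length, from the longest. In HoxA, a region of 19229 bp (chr6:52216337-52235565) held starts of Hoxa7, Hoxa9 and Hoxa10 in replicate 1 and ranked at 113. In replicate 2 it was 25120 bp long (chr6:52216274-52241393), ranked at 48 and reached over the whole of Hoxa10. A region of 11271 bp in replicate 1 and 11649 bp in replicate 2 overlapped the annotated Hoxc5 and Hoxc6 genes, with no start of a coding Hox transcript within 1 kb. These were the 3 regions of at least 10 kb per replicate. In all, 6 Hox genes had a start inside such a region in each replicate (15.4%), beside 2.01% of all genes in replicate 1 and 2.30% in replicate 2, and these 6 genes lay under 2 regions. HoxB reached 8635 bp at most and HoxD 4368 bp. The median region in the clusters was 2148 and 2314 bp long, beside 1476 and 1499 bp for the whole lists.

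**Figure D3:**
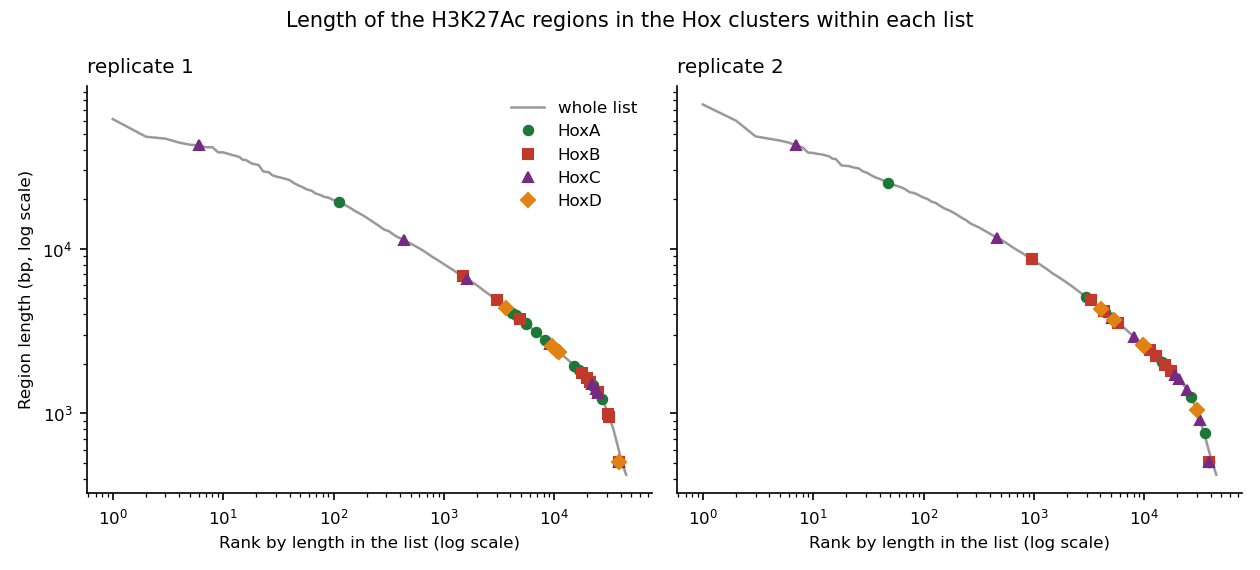
Length of each H3K27Ac region of the Hox clusters against its rank by length in the list of replicate 1 (left) and replicate 2 (right), both axes on a log scale, with the whole list as a grey line. The longest HoxC region ranks at 6 and 7 and the longest HoxA region at 113 and 48, while the HoxB and HoxD regions are at most 8635 bp long.

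In tiles of 100 kb over the genome, the best tile of HoxC ranked at 33 of 27247 by covered bases in replicate 1 and at 44 in replicate 2. HoxA ranked at 113 and 105, HoxB at 2021 and 1501, and HoxD at 4091 and 3862. The tiles form a fixed grid that can cut a cluster, so these ranks depend on where the edges fall. In replicate 1, the best tile of HoxD held 7435 of the 12196 covered bases of the cluster. The median tile of the genome had 0% covered.

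The stretches beside the clusters held less H3K27Ac than HoxA and HoxC did. Within 100 kb on the side of the high numbers, 0% was covered next to HoxB and HoxC in both replicates, 1.23% and 1.11% next to HoxA, and 5.04% and 3.0% next to HoxD. On the side of the low numbers it was 5.53% and 3.34% for HoxA, 0% and 0.628% for HoxB, and 5.21% and 4.85% for HoxD. The flank of HoxC next to Hoxc4 was the fullest, with 14.5% and 14%, a share like that of HoxB itself. The first 50 kb were bare in both replicates on 5 of the 8 sides, and the first 80 kb on the Hoxd13 side, which holds Evx2.

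**Figure D4:**
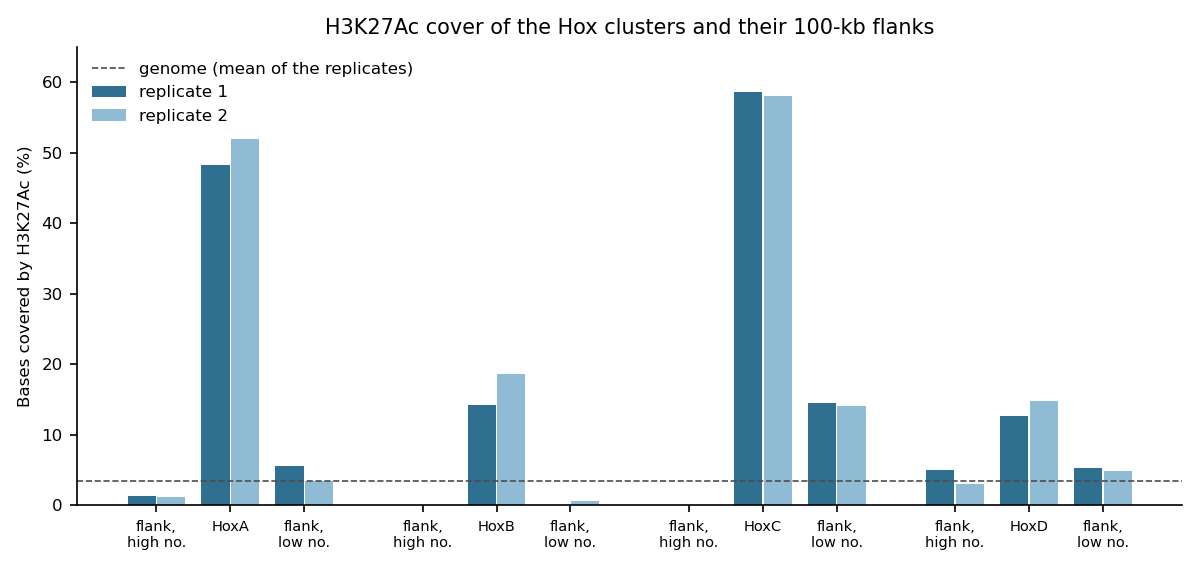
Share of bases covered by H3K27Ac in each Hox cluster and in the 100 kb beside it, on the side of the high and of the low paralogue numbers, for replicate 1 (dark) and replicate 2 (light). The dashed line is the genome, the mean of 3.37% and 3.46%. HoxA and HoxC stand far above their flanks, and 0% is covered on the high side of HoxB and HoxC.

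Of the 8 protein-coding genes that came first outside the clusters, 4 were marked in both replicates, near the 55.2% of all protein-coding genes. Evx1, next to Hoxa13, and Evx2, next to Hoxd13, are homeobox genes that flank the Hox clusters, and both had 0 covered bases. Ttll6 and Skap1, on the sides of HoxB, had 0 as well. Calcoco1 had 1854 and 1994 bases, Mtx2 had 1628 and 1512, Skap2 had 1511 and 1594, and Smug1 had 338 and 399.

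Noncoding genes of the clusters followed the same stretches only in part, since 2 of HoxA, Hottip and Hotairm1, were unmarked at their starts. Of 21 listed, 16 were found in or within 5 kb of a cluster. Of these, 10 had H3K27Ac within 1 kb of the annotated start in both replicates, near the 55.2% of protein-coding genes. Hotair, a long RNA transcribed against the HoxC genes, had its start inside the region of 42.6 kb and 2001 bases covered in both. Hoxa11os, antisense to Hoxa11, had 1057 and 1220 bases, and Hoxb3os had 1476 and 1516. Hoxaas3 had 1013 and 1217, Hoxd3os1 had 420 and 431, and Hoxaas2 had 402 and 106. Hottip, beyond Hoxa13, had 0 in both, with a region 1681 and 1609 bases away. Hotairm1 had 0 at its start in both, though part of its gene body was covered. Haglr, which starts beside Hoxd1, had 0 and lay 47347 and 47336 bases from a region. Hoxb5os had 0 and 453. A list of regions carries no strand, so a coding gene and its antisense partner cannot be told apart by it.

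Most Hox microRNAs form families whose members sit at matching places in different clusters. In all, 6 microRNA genes were found, among them Mir615, which shared its seeds with no other. The mature sequences of these families are shown because family members with 1 seed, the part that pairs with targets, lay in differently marked places. The sequences are those of RefSeq on GRCm38.p6, and capitals mark the seed, bases 2 to 8.
miR-196a-5p: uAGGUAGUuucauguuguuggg
miR-196b-5p: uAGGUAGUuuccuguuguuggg
miR-10a-5p: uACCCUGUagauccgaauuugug
miR-10b-5p: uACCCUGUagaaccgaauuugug

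The same mature miR-196a-5p comes from 2 genes. Mir196a-2, between Hoxc10 and Hoxc9, lay inside the region of 42.6 kb in HoxC, with 2001 bases covered around it in both replicates. Mir196a-1, in the bare stretch between Hoxb13 and Hoxb9, had 0 and lay 6593 and 14059 bases from a region. Mir196b, beside Hoxa9, which has the same seed, lay inside the long HoxA region with 2001 bases covered in both. For the other shared seed, Mir10a, beside Hoxb4, had 22 and 210 bases within 1 kb, and Mir10b, beside Hoxd4, had 0 and lay 10521 and 10510 bases away. Mir615, in the Hoxc5 gene, had 1875 and 1327 bases. The position of a miRNA hairpin is not the start of its primary transcript, so these values describe the place only.

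Promoter sequences of RefSeq were matched for 22 of the 39 genes, with 24 entries of 300 bases, which run from 250 bases before a start to 50 after it. Genes without an entry included Hoxa4, Hoxb2, Hoxb3, Hoxb5, Hoxb6, Hoxb7, Hoxb9, Hoxb13, Hoxc5, Hoxc6, Hoxc8, Hoxc9, Hoxc10, Hoxc11, Hoxc12 and Hoxc13. The 250 bases before the start are printed for 3 genes that were covered over the whole window in both replicates, with capitals marking CG pairs, in which mammalian DNA is methylated.
Hoxa9 (chr6:52227371-52227620, minus strand): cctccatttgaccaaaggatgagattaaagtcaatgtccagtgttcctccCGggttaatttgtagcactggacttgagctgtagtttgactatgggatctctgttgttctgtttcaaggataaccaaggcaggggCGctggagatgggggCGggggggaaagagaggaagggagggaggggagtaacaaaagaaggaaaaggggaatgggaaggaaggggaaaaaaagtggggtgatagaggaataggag
Hoxb8 (chr11:96281655-96281904, plus strand): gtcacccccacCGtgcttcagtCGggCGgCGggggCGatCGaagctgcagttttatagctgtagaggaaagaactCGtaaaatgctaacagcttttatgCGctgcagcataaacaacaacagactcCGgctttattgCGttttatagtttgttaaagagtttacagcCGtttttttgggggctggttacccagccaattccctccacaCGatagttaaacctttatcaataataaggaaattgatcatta
Hoxd10 (chr2:74691641-74691890, plus strand): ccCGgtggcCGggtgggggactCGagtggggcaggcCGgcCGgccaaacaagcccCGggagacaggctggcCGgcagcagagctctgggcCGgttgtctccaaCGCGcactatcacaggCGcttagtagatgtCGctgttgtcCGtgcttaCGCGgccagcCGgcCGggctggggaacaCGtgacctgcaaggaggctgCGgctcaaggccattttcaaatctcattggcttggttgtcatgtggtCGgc

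These fully covered promoters ranged widely in composition. That of Hoxa9 had 3 CG pairs in its 250 bases and 49.6% G and C, that of Hoxb8 had 12 and 44.4%, and that of Hoxd10 had 20 and 65.6%. The next 2 pairs set a marked paralogue beside an unmarked one of the same number, since they show how alike or unlike such promoters can be.
Hoxb4, marked (chr11:96318017-96318266, plus strand): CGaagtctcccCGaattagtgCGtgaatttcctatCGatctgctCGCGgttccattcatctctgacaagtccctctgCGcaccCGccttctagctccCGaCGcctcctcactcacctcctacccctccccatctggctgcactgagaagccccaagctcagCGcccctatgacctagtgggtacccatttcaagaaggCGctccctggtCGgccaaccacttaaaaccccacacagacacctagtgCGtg
Hoxd4, unmarked (chr2:74721728-74721977, plus strand): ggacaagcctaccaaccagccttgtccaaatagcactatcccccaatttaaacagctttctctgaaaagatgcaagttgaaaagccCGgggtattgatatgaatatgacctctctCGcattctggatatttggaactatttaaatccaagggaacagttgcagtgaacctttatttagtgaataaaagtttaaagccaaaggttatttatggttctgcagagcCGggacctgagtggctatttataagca
Hoxa13, marked (chr6:52260881-52261130, minus strand): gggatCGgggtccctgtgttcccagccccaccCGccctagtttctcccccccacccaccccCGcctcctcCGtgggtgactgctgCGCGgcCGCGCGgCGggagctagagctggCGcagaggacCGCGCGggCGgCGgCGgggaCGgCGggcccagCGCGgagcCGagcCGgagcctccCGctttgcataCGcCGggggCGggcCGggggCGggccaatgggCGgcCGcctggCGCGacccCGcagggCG
Hoxd13, unmarked (chr2:74667975-74668224, plus strand): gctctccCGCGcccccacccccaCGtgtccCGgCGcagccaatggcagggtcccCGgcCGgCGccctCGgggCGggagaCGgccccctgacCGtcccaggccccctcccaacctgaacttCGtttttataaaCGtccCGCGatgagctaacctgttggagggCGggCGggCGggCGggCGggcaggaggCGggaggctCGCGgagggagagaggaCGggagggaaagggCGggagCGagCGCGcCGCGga

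Hoxb4 and Hoxd4 differed, with 14 CG pairs and 58.0% G and C in the marked promoter and 3 and 40.4% in the unmarked one. Hoxa13 and Hoxd13 were both rich in CG, with 35 pairs and 80.0% in the marked promoter and 31 and 74.4% in the unmarked one. Over the 24 entries, the 17 of marked genes had a median of 15 CG pairs per 300 bases and 57.3% G and C, and the 7 of unmarked genes 13 and 59.3%. All promoters of the table had medians of 7 and 52.7%, so both kinds of Hox promoter lay above them in these medians, and their ranges overlapped, from 4 to 45 and from 4 to 37 CG pairs.

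Short motifs were searched on both strands of the 300 bases. The Meis site TGACAG was found in 2 of 24 Hox entries (8.33%), beside 19.2% of all promoters, at Hoxa2 and Hoxa3. The paired Pbx and Hox site TGATNNAT was found in 4 (16.7%), beside 8.85%, at Hoxa2, Hoxb1, Hoxb8 and Hoxd11. The nuclear receptor core AGGTCA was found in 7 (29.2%), beside 16.3%. It was in 6 of the 17 entries of marked genes and in 1 of the 7 of unmarked genes. The TATA box TATAAA was in 4 (16.7%), beside 13.6%, the E-box CAGCTG in 4 (16.7%), beside 16.3%, and the homeodomain core TAATTA in 2 (8.33%), beside 5.29%, both of Hoxd11. The GC box GGGCGG was in 10 (41.7%), beside 35.7%, and the Maf sequence TGCTGA in 2 (8.33%), beside 19.5%, at Hoxa10 and Hoxd12. These counts are small, and a match of letters is not a bound site.

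The Hox clusters held 2 Maf peaks, both of replicate 2. No Hox start had a peak within 1 kb in either replicate, beside 4.71% of all genes. Within 10 kb there was one for 3 genes (7.69%), Hoxa9, Hoxa10 and Hoxc9, which is near the share of all genes, 10.2%. Within 50 kb there was one for 17 genes (43.6%), beside 28.8% of all genes, and they were 9 HoxA and 8 HoxC genes, which share few peaks, with 0 of HoxB and HoxD. The nearest peak of replicate 2 lay between 101271 and 272707 bases from the HoxB starts and between 206796 and 301466 bases from the HoxD starts. In Maf replicate 1, 0 peaks lay in or within 100 kb of a cluster.

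The 2 peaks inside the clusters are shown because each lay within one of the long H3K27Ac regions of both replicates. The sequence is that of the plus strand of GRCm38.p6, and capitals mark TGCTGA, the core of the Maf recognition element, where it was found on either strand.
HoxA peak (chr6:52233532-52233812): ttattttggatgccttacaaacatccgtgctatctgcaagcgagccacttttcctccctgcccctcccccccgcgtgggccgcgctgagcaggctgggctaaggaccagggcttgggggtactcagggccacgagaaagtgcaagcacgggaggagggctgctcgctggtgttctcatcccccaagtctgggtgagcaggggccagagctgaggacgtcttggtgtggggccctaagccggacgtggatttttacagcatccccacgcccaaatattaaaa
HoxC peak (chr15:102979298-102979578): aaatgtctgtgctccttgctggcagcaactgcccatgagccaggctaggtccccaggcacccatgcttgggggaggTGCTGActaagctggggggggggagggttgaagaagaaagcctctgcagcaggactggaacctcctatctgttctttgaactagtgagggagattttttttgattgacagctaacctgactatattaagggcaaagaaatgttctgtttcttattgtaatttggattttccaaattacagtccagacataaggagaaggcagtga

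The HoxA peak lay inside the annotated Hoxa10 gene but outside its coding-transcript exons, 1127 bases from a start, and stood at position 1158 of 5467 in the list. It held no TGCTGA on either strand. The HoxC peak lay likewise inside Hoxc9, 2266 bases from the start, at position 2924, and held 1 TGCTGA at base 77 of the peak, which was also the longer TGCTGAC. Among 5466 peaks of replicate 2 on the main chromosomes, 50.8% held TGCTGA and 22.8% TGCTGAC. Whether the list is ordered by strength is not stated.

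Genes of proteins that work with Hox factors were marked in most cases. Over all protein-coding genes, the share marked in both replicates was 55.2%. Of 9 TALE homeodomain cofactors, which bind DNA together with Hox proteins, 8 carried H3K27Ac in both replicates. Meis1, Pbx2 and Pknox1 were covered over all 2001 bases in both. Meis2 had 2001 and 1589, Pbx3 had 1514 and 1657, Meis3 had 1285 and 1146, and Pknox2 had 1284 and 1419. Pbx4 had 0, with the nearest region 23184 and 4469 bases away. Of 23 Polycomb genes, 22 were marked in both, and Cbx2, a reader of methylated lysine 27, had 0 and 637. Eed and Jarid2 had 2001 bases in both, Bmi1 had 1987 and 2001, and Cbx6 had 2001 and 1901. All 12 genes of the Trithorax group and of lysine 27 enzymes were marked, among them the acetylases Ep300 and Crebbp and the demethylases Kdm6a and Kdm6b.

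Regulators that set Hox expression in the embryo, limb identity genes and other homeobox genes were each marked in part. Of 13 genes of the retinoid pathway, Gdf11 and Cdx, 8 were marked in both replicates (61.5%), near the 55.2% of all protein-coding genes. Rara, Rarg, Rxra and Rxrb were covered most, and Cdx1, Cdx2, Cdx4, Cyp26a1 and Cyp26b1 had 0. Of 6 limb identity genes, 4 were marked in both (66.7%), beside the same 55.2%. Tbx5, known from the forelimb bud, and Shox2 were covered over 2001 bases in both, Isl1 had 1452 and 1080, and Lmx1b, of the dorsal limb, had 501 and 501. Tbx4, of the hindlimb bud, had 1006 and 0. Pitx1, which sets hindlimb identity, had 0 within 1 kb in both, with a region 2263 and 2101 bases from a start. Of 69 other homeobox genes, 26 were marked in both (37.7%), beside 71.8% of the Hox genes and 55.2% of all protein-coding genes. En1, Hlx and Meox2 were covered over 2001 bases in both, while Lhx6 had 870 and 2001.

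**Figure D5:**
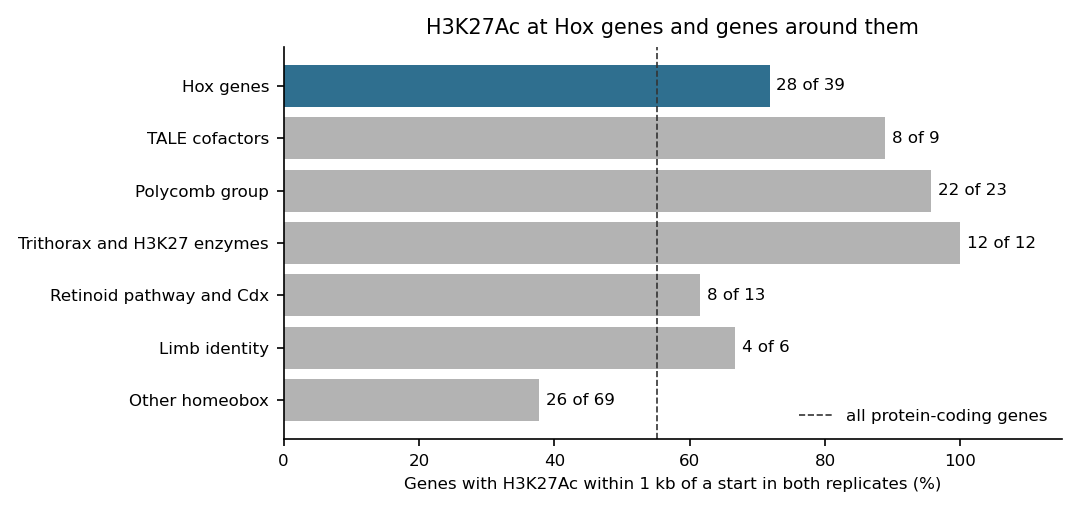
Share of genes with H3K27Ac within 1 kb of a start in both replicates, for the Hox genes (blue) and lists of related genes (grey), with the count beside each bar. The dashed line is the share of all protein-coding genes, 55.2%. The other homeobox genes lie below it at 26 of 69 and the Hox genes above it at 28 of 39.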

How the data were processed

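Nuclei of gastrocnemius and quadriceps were used for ChIP-seq of H3K27Ac and Maf. The authors aligned the reads with Bowtie2 (2.3.2 per the labels) to GRCm38 (mm10) and listed regions for each sample, with HOMER named in the processing notes. The study gives a false discovery rate for the Maf peaks, and by its methods each input was taken from the same sheared chromatin. Other caller settings, and whether the input entered the calling, are not given in the sources used here. The deposited lists hold a start and end per region and a score that is 1 in each line, with no strength or count. Starts, counted from 0, were shifted by 1. A start was that of any protein-coding transcript of GENCODE M21 basic (41433 starts), and overlap needed 1 base. No test was made, so no p-value is given. Procedures were tested on simulated data. The members and gene lists were chosen with earlier results of these data known. Genes named were all members, noncoding genes in a cluster, the first coding gene beyond each end, all TALE and limb identity genes and, per other list, up to 4 with most bases under the merged regions of both replicates, ties by symbol. Pax7 and Mkx stand on 2 lists each. Some genes that this rule takes are not reported here by name, and all counts include them. Cbx2 and list members at 0 were named after their values were seen. For the lists with few marked genes, those reported were Pax7, Chodl, Vcam1 and Myf5 (satellite cell) and Scx, Fmod, Thbs4 and Tnmd (tendon). Also reported were Mbp, Sox10 and Cdh19 (Schwann cell) and Fabp4, Plin1, Cfd and Lep (adipocyte). Of these, Myf5, Tnmd, Sox10, Cdh19, Plin1 and Cfd had 0 covered bases in 1 replicate, so they were not marked in both. Cdh15, a satellite cell marker with 787 and 750 bases, was marked in both but not taken by the rule. Windows of 500 bp and 2.5 kb, other starts, overlaps, lengths, flanks and groups, and leaving out each replicate were tried. Promoters shown had an entry and no annotated exon in the printed part, a limit set after seeing the entries. Tools were numpy 2.4.6, pandas 2.3.3 and, for plots, matplotlib 3.10.9, run under Python 3.11.15.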

Additional observations from a re-analysis of the deposited data

How the results depend on the processing

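The count of 29 marked Hox genes in either replicate stayed between 26 and 30 under 11 alternatives, with 26 when only regions at least as long as the list median were kept (Hoxa5, Hoxb9 and Hoxc4 were lost) and 30 with a window of 2.5 kb (Hoxb3 was gained). The share of the clusters covered in either replicate, 35.5%, was 30.7% with clusters extended by 10 kb, 30.4% for bases covered in both replicates, 33.6% for regions at least as long as the list median, from 31.6% to 34.2% without 1 replicate, and 42.0% when HoxB began at Hoxb9, an alternative chosen after seeing the data. With groups of 1 to 4 and 10 to 13, 8 and 6 genes were marked in place of 5 of 8 and 10 of 16. The first group gains genes by this change and the second loses genes, so the counts are of unlike groups. The 3 genes with Maf within 10 kb became 17 within 50 kb and 0 within 1 kb, and ranged from 0 to 3 without 1 Maf replicate, with 0 without replicate 2. The flanks were covered over 4.59%, and over 2.43% at 50 kb and from 3.36% to 3.94% without 1 replicate. With only regions shared by the replicates, the count of markers with H3K27Ac in either replicate was 3 in place of 5 for tendon, 2 in place of 4 for Schwann cells and 2 in place of 4 for adipocytes. Without 1 H3K27Ac replicate these counts ranged from 3 to 5 for tendon and from 2 to 4 for Schwann cells. Adding genes to a group, widening a window or adding a replicate can only keep or raise such a count. Beyond this, the cause of these moves was not tested. No paired analysis was possible because no result comes from a test. Depth is not given by the lists, so a bare stretch says only that no region was called.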
